A study of Mus musculus with 3072 samples.

Results

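Mfsd2b, Sphk1, Sphk2, Sgpl1, Sgpp1 and S1pr1, 6 genes of sphingosine phosphate handling, were followed through single bone marrow cells of mice. They were chosen by symbol, and all 6 were found among the 55291 gene symbols of the deposited count matrix. Sphingosine 1-phosphate (S1P) is a lipid signal made inside cells from sphingosine by the kinases encoded by Sphk1 and Sphk2. It is destroyed by the lyase encoded by Sgpl1, or returned to sphingosine by the phosphatase encoded by Sgpp1. Mfsd2b encodes the membrane transporter through which red cells and platelets, the main cell sources of S1P in blood, release it, and S1pr1 encodes a receptor through which blood cells sense S1P. Because blood holds more S1P than marrow and other tissues, S1P receptors help guide blood cells out of tissues, and S1P also acts on the endothelium.

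The mice were wild-type C57BL/6 that had received transplanted stem cells carrying barcodes, a feature that every group shares. Control mice (4) were sampled at week 32 after transplantation and platelet-depleted mice (4) at week 28. The labels name neither the agent of depletion nor the age of the animals. From crushed marrow of each mouse, cells were sorted into populations labelled HSC, CFU and MkP, names that the labels do not spell out. Each cell was sequenced with Smart-seq2, which reads whole transcripts but has no molecular identifiers, so a count is a read after amplification. The code opening each sample's title was taken as the mouse, which the labels do not state in words. Treatment, week and experiment coincided in all 8 mice and cannot be told apart.

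Of 3069 wells with counts, 2668 were kept: 697 HSC (328 control, 369 depleted), 647 CFU (300 and 347) and 1324 MkP (644 and 680). The counts of a mouse added up to between 68792249 and 163711561 for HSC, between 142259804 and 238230656 for CFU, and between 215705409 and 327869432 for MkP. Levels are CPM, the counts of a gene scaled to the TMM-adjusted total of each sum, so that fewer expressing cells and less RNA per cell cannot be told apart in them. Levels of single cells and of parts of a population are scaled to the plain total instead, so they can fall outside the range of the sums. The sorted populations carried their markers. The 6 HSC markers, which include Procr and Mecom, summed to 589 to 1223 CPM in HSC, against 69.5 to 109 in CFU and 46.7 to 83.2 in MkP. In CFU 5 of the 6 averaged under 1 CPM, Procr and Mecom among them, so that sum was nearly all Mllt3. Erythroid markers (5 genes, among them Klf1 and Epor) summed to 6126 to 8995 CPM in CFU but only 245 to 659.9 in MkP and 30.8 to 244 in HSC, so CFU here are mostly cells with red cell genes. The 6 megakaryocyte markers, such as Pf4 and Gp9, summed to 3209 to 5523 CPM in MkP, 1191 to 1710 in HSC and 11.4 to 28.5 in CFU. The 5 endothelial markers summed to 83.4 to 125 CPM in HSC and 41.3 to 76.4 in MkP, against 0.0391 to 1.95 in CFU, mostly Tek and Emcn, which stem cells also express, while Cdh5 was under 1 CPM in every population. The 6 lymphocyte markers summed to 281 to 479 CPM in MkP, against 12.7 to 97.5 in HSC and 0.374 to 81.3 in CFU, mostly Nkg7 (374 CPM on average in MkP), with Cd3e and Cd3g at 0 in every population. The 5 myeloid markers, such as Mpo and Elane, summed to 442 to 620 CPM in HSC and 282 to 616 in MkP. In CFU they varied widely between mice, from 0.489 to 2574 CPM with a median of 492.

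The promoters of Mfsd2b and Sphk1 are shown because these genes had the highest levels of the 6 in MkP and CFU. Each window is the 250 bases before the annotated start in RefSeq, on build GRCm38.p6, read along the gene's strand. Capitals mark matches, on either strand, to CCNCNCCC, a motif bound by erythroid KLF factors, or to a GATA motif spelled AGATAA, also accepted with T as its opening base or G as its closing base.
Mfsd2b: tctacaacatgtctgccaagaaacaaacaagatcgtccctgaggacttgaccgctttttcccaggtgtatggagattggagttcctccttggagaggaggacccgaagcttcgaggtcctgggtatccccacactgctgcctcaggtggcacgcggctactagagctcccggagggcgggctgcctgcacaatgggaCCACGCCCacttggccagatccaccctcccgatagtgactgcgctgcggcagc
Sphk1: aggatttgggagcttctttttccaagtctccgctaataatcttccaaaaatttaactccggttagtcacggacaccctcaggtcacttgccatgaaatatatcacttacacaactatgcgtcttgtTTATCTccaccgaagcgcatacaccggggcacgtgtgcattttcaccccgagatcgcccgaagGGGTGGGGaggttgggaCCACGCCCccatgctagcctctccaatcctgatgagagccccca
The Mfsd2b window lies at chr12:4874360-4874609 on the minus strand and holds 1 KLF match, at -53 from the start, and 0 GATA matches. The Sphk1 window, at chr11:116532194-116532443 on the plus strand, precedes 1 of its 5 annotated starts. It was chosen after the matches were known, as the one of the 5 with no annotated exon in it. A window starting 7 bases further on holds the same matches, and the other 3 hold 0 GATA matches. The printed window holds 1 GATA match at -124 and 2 KLF matches at -61 and -44, and 0 of these matches overlap. Among 32851 windows of this length before annotated starts, 45.9% hold the KLF motif and 26.5% a GATA motif, so a match alone sets no promoter apart. An ETS motif, CCGGAAG, is in 6.91% of those windows and in 0 windows of the 5 members found in the table. A match is only a description of these letters.

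In the GENCODE M21 annotation of GRCm38, Mfsd2b spans chr12:4862440-4874359 on the minus strand and Sphk1 chr11:116530925-116536674 on the plus strand. Sphk2 spans chr7:45709467-45718002, Sgpl1 chr10:61098642-61147703, Sgpp1 chr12:75714249-75735729 and S1pr1 chr3:115710433-115715072, all on the minus strand. Exons of Sphk2 share 539 bases with Dbp and 373 bases with the ribosomal gene Rpl18 on the opposite strand. Rpl18 stood at 936 to 2007 CPM, far above Sphk2, and whether counting used strand is not stated, so Sphk2 values are uncertain. Sphk1 shares 192 exonic bases with the antisense gene Gm29292, which reached at most 0.281 CPM.

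Mfsd2b, the S1P exporter of red cells and platelets, rose from HSC to CFU and further to MkP. In HSC it stood at 37.97, 20.4, 60.4 and 83.3 CPM in control mice 1 to 4 and at 56.03, 94.2, 37.8 and 65.98 CPM in depleted mice 1 to 4. In CFU the control mice gave 441, 369, 358 and 422 CPM and the depleted mice 448, 424, 437 and 441 CPM. In MkP the values were 775, 667, 817 and 755 CPM in control mice and 778, 910.3, 841 and 896 CPM in depleted mice. The ranges of the 3 populations did not overlap in 8 mice each, with MkP highest and HSC lowest. Differences between populations are log2 fold changes from edgeR's quasi-likelihood test over all 24 sums, with p-values adjusted by Benjamini-Hochberg over 19573 genes and called under 0.05. For Mfsd2b the difference was 3.83 (SE 0.21, adjusted p = 1.02e-11) for MkP against HSC, 2.88 (SE 0.20, adjusted p = 1.42e-11) for CFU against HSC and -0.95 (SE 0.19, adjusted p = 0.000188) for CFU against MkP.

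Sphk1, the kinase that is induced by many stimuli, was a gene of the CFU. Its levels there were 641, 673, 612 and 637 CPM in control mice and 818, 672, 633 and 853 CPM in depleted mice. In MkP it stood at 5.05, 10.46, 19.5 and 7.94 CPM in control mice and at 17.8, 12.7, 6.13 and 11.6 CPM in depleted mice. In HSC the control mice had 0.187, 0.00687, 0.370 and 14.1 CPM and the depleted mice 0.474, 1.25, 0.298 and 0.449 CPM. Every CFU sum lay above every MkP and HSC sum, while HSC and MkP overlapped through control mouse 4 alone. Sphk1 was higher in CFU by 8.57 (SE 0.99, adjusted p = 6.26e-08, edgeR) against HSC and by 5.93 (SE 0.87, adjusted p = 3.22e-06) against MkP. It was also higher in MkP than in HSC, by 2.64 (SE 0.79, adjusted p = 0.0124), and by 4.83 without control mouse 4.

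**Figure D1:**
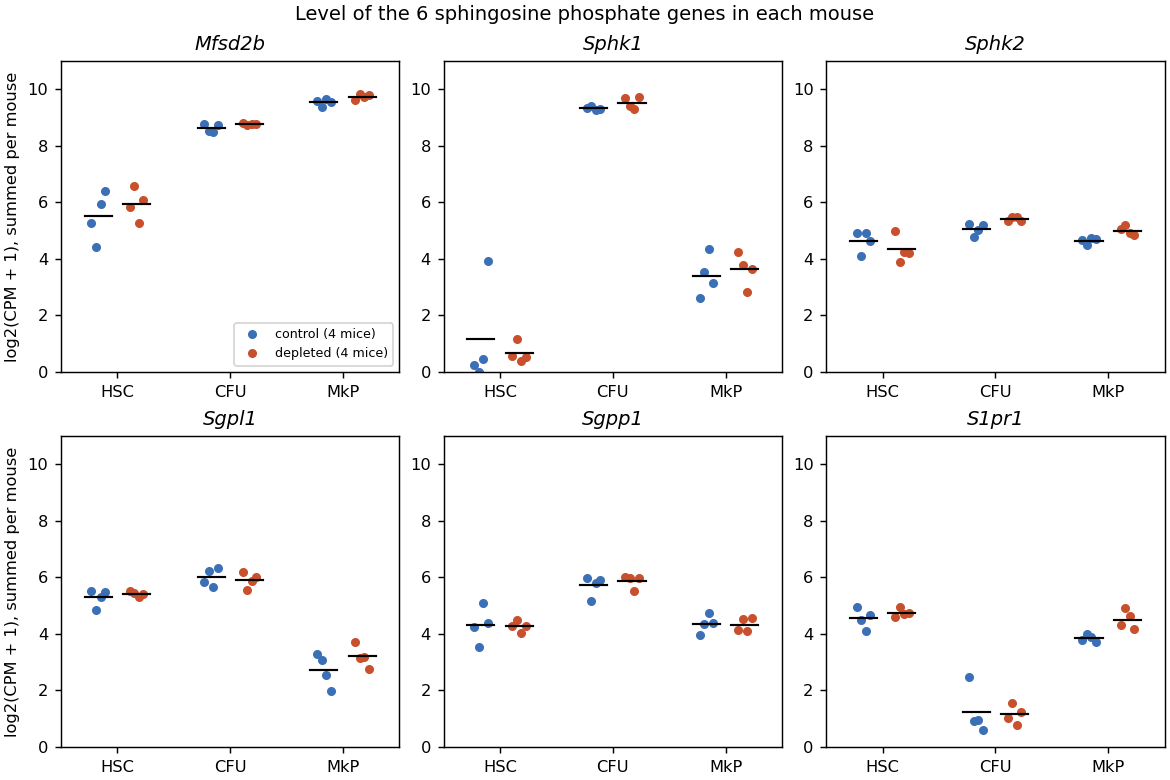
Level of each of the 6 genes as log2(CPM + 1), with 1 point per mouse in HSC, CFU and MkP, control and depleted mice in separate colours and a bar at the mean of 4 mice. Mfsd2b steps up from HSC to CFU to MkP, Sphk1 is high in CFU alone of the 3 populations, and S1pr1 is lowest in CFU.

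Sphk2, the kinase found also in the nucleus and mitochondria, varied far less between populations. It stood at 29.01, 16.4, 29.4 and 23.6 CPM in HSC of control mice and at 30.4, 13.97, 18.1 and 17.7 CPM in HSC of depleted mice. CFU had 36.4, 26.1, 31.6 and 35.5 CPM in control and 39.8, 43.3, 43.1 and 39.7 CPM in depleted mice. MkP had 24.6, 21.3, 25.5 and 24.8 CPM in control and 32.5, 35.7, 28.98 and 27.4 CPM in depleted mice. The populations overlapped in every pair, with CFU highest by mean. Sphk2 was higher in CFU than in HSC by 0.71 (SE 0.16, adjusted p = 0.000382, edgeR) and than in MkP by 0.42 (SE 0.16, adjusted p = 0.0254). The second call was lost without control mouse 4 (adjusted p = 0.0614), depleted mouse 3 (0.0578) or depleted mouse 4 (0.0536), with a filter at a mean of 8 CPM (0.109) and with each cell thinned to 20000 counts (0.411). For MkP against HSC the difference was 0.29 (95% interval -0.04 to 0.61, adjusted p = 0.178).

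To compare genes with each other, levels were divided by exonic length and are CPM per kilobase. In CFU, Sphk1 led at 145 ± 19.1 (SD, n = 8 mice), above Mfsd2b at 81.1 ± 6.71. Sgpl1 (10.2), Sgpp1 (9.80) and Sphk2 (8.88) followed with overlapping ranges, and S1pr1 was lowest at 0.491. In MkP, Mfsd2b stood at 156 ± 15.4 CPM per kilobase, and the other 5 members, from Sphk2 at 6.63 down to Sgpl1 at 1.18, each overlapped the next. In HSC every neighbour in the order overlapped, from Mfsd2b at 11.1 to Sphk1 at 0.449. On this per-length scale Sphk1 made up 94.2% ± 0.975 of the 2 kinases' level in CFU, 25.7% ± 8.45 in MkP and 6.02% ± 11.6 in HSC (SD, n = 8 mice). Without control mouse 4 the HSC share was 1.98% ± 2.42 (SD, n = 7), and Sphk1 in HSC was 0.0909 CPM per kilobase.

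Sgpl1, the lyase that ends S1P for good, was lowest in MkP. HSC had 44.7, 28.1, 39.1 and 44.2 CPM in control and 44.8, 42.5, 38.7 and 41.3 CPM in depleted mice. CFU had 55.999, 74.6, 49.2 and 79.8 CPM in control and 72.5, 45.9, 57.8 and 64.2 CPM in depleted mice, against 8.72, 7.44, 4.84 and 2.94 CPM and 12.1, 7.87, 8.18 and 5.77 CPM in MkP. The 3 populations did not overlap, in the order CFU, HSC, MkP. In MkP Sgpl1 was lower than in HSC by a log2 change of -2.49 (SE 0.20, adjusted p = 5.06e-09, edgeR), and in CFU it was higher than in MkP by 3.13 (SE 0.21, adjusted p = 1.13e-11). CFU exceeded HSC by 0.63 (SE 0.19, adjusted p = 0.00607), which fell to 0.33 (adjusted p = 0.0962) when every cell was thinned to 20000 counts.

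Sgpp1, the phosphatase that returns S1P to sphingosine, was higher in CFU than in the other populations. It stood at 62.1, 35.1, 55.004 and 59.1 CPM in CFU of control mice and at 63.02, 61.4, 45.2 and 61.9 CPM in CFU of depleted mice. HSC ranged from 10.6 to 33.2 CPM with a mean of 19.4 ± 6.46 (SD, n = 8), and MkP from 14.7 to 25.9 CPM with a mean of 19.6 ± 3.80. All CFU values lay above all HSC and MkP values, and those of HSC and MkP overlapped. The difference of CFU was 1.51 (SE 0.18, adjusted p = 1.00e-07, edgeR) against HSC and 1.49 (SE 0.18, adjusted p = 1.80e-07) against MkP. MkP and HSC differed by 0.02 with a 95% interval of -0.35 to 0.38.

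S1pr1, the receptor that draws blood cells toward S1P, was nearly missing from CFU. HSC had 30.2, 21.7, 16.3 and 24.8 CPM in control and 23.2, 30.3, 25.4 and 25.5 CPM in depleted mice. MkP had 12.9, 15.01, 13.7 and 12.1 CPM in control and 18.8, 29.2, 23.7 and 17.05 CPM in depleted mice. In CFU it was 4.55, 0.896, 0.929 and 0.513 CPM in control and 1.05, 1.95, 0.729 and 1.36 CPM in depleted mice. The single CFU with at least 100 CPM of S1pr1 had 8376 CPM of lymphocyte markers and 66.1 CPM of erythroid markers, and it held 5.30% of the S1pr1 counts of CFU. CFU lay below the other populations in every mouse, by -4.03 (SE 0.37, adjusted p = 1.66e-09, edgeR) against HSC and -3.54 (SE 0.37, adjusted p = 1.82e-08) against MkP. HSC and MkP overlapped, and their difference of -0.48 (SE 0.33, adjusted p = 0.298) was called only in the fit of those populations alone (adjusted p = 0.0121) and with thinned cells (adjusted p = 0.0146).

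In all, 3 of 6 members were called between MkP and HSC (2 higher, 1 lower), where 31% of all genes tested were called. Between CFU and HSC 6 of 6 were called (5 higher in CFU) against 64.9% of all genes, and between CFU and MkP 6 of 6 (4 of them higher in CFU) against 55.3%. DESeq2 called 2, 5 and 5 members in these comparisons, with no adjusted p for Sphk1, beside 6616, 12970 and 11145 of 19573 genes. The median log2 difference over the 6 was 1.11 for CFU against HSC and 0.96 for CFU against MkP, beside medians over all genes of -0.23 and -0.21.

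The share of cells with a count was compared after each cell was thinned at random to 20000 counts. Mfsd2b was seen in 18.1% ± 4.03 of HSC, 94.2% ± 4.85 of CFU and 95.2% ± 2.17 of MkP (SD, n = 8 mice). Sphk1 was seen in 96.4% ± 4.01 of CFU, 3.18% ± 1.27 of MkP and 1.44% ± 1.49 of HSC. Sgpl1 was seen in 43.98% ± 8.37 of CFU, 21.6% ± 3.49 of HSC and 4.84% ± 1.71 of MkP. S1pr1 was seen in 20.9% ± 4.33 of HSC, 16.4% ± 4.14 of MkP and 2.31% ± 0.712 of CFU. For Sphk2 the shares were 20.9%, 39.5% and 25.95% in HSC, CFU and MkP, and for Sgpp1 13.5%, 45.1% and 15.6%. Of 18 differences between populations, 13 passed the exact two-sided sign-flip test over 8 mice at an adjusted p of 0.0108, from the smallest p that test can give, 0.0078. The other 5 were Mfsd2b between CFU and MkP (-0.981 percentage points, adjusted p = 0.523) and Sphk1, Sphk2, Sgpp1 and S1pr1 between MkP and HSC (adjusted p from 0.0804 to 0.174). Of these, Sphk2 passed the exact sign-flip test at 100000 counts per cell (8.94 points, adjusted p = 0.0201), without thinning (8.97, 0.0201) and without control mouse 3 (6.67, 0.0402), and Sphk1 without control mouse 4 (2.18 points, 0.0201). Before thinning, the median cell of a mouse held 681559 to 1635972 counts among HSC, whereas CFU had 1901157 to 2640913 and MkP 1191705 to 1871093.5.

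**Figure D2:**
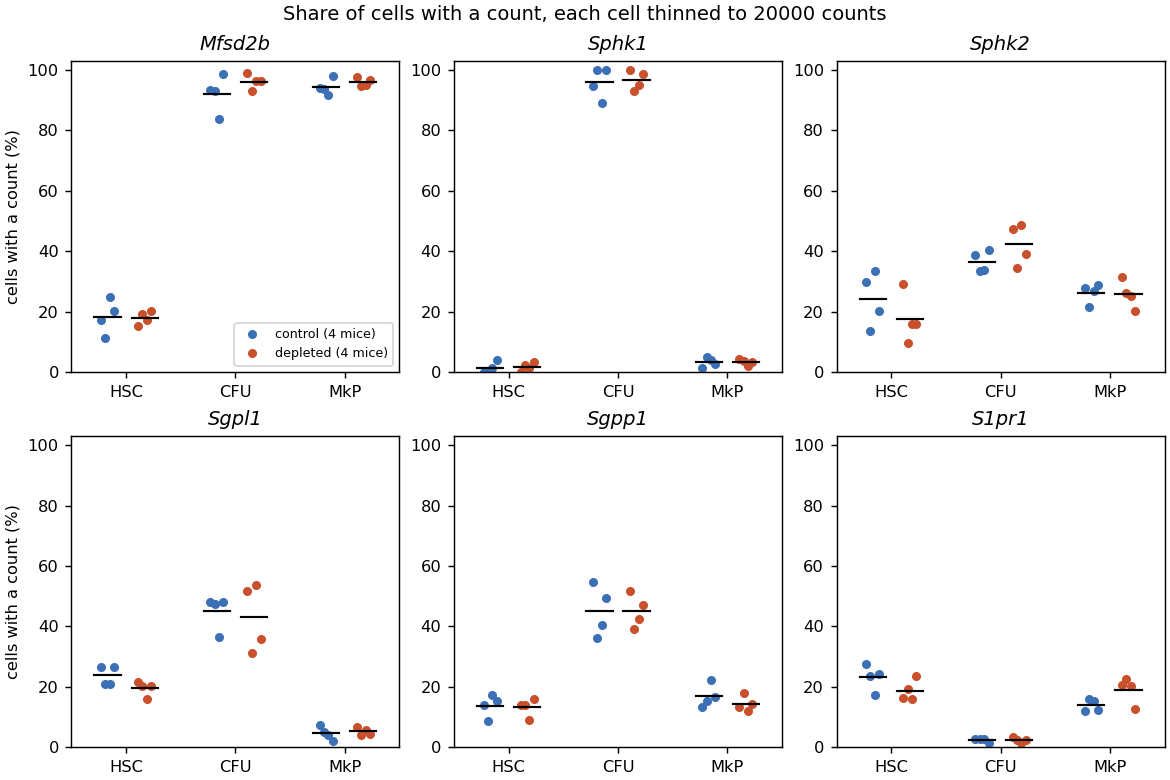
Percentage of cells with at least 1 count of each gene after thinning every cell to 20000 counts, with 1 point per mouse and a bar at the mean of 4 mice. Mfsd2b is in most CFU and MkP of every mouse, Sphk1 in most CFU and few other cells.

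Pooled over mice, most of the rare Sphk1 counts outside CFU sat in few cells. In MkP, the 29 of 1324 cells with at least 100 CPM of Sphk1 held 94.1% of its counts and came from all 8 mice. Those 29 cells had 6404 CPM of the 5 erythroid markers, against 274 CPM in the other MkP, and 846 CPM of megakaryocyte markers against 4202 CPM. In HSC, 3 of 697 cells, from 2 mice, held 84.6% of the Sphk1 counts, with erythroid markers at 3601 CPM against 48.4 CPM in the rest. In HSC of control mouse 4, the highest for Sphk1, 1 cell held 49.6% of 1914 counts, and that mouse also had the highest erythroid marker sum of the HSC, 244 CPM. In HSC of depleted mouse 2, 1 cell held 79.6% of 216 counts. The HSC of other mice did not share this: control mouse 2 had 1 count, and the rest had 14 to 85 counts with at most 15.7% in 1 cell. In depleted mouse 1 the 85 counts lay in 57 of 93 HSC. Among CFU, 624 of 647 cells had at least 100 CPM of Sphk1. The other 23 CFU had myeloid markers, such as Mpo and Elane, at 26334 CPM against 4.30 CPM, and erythroid markers at 2034 CPM against 6043 CPM.

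Mfsd2b was also uneven in HSC, as were the other members. There 91 of 697 cells, from all 8 mice, had at least 100 CPM of Mfsd2b and held 92.9% of its counts. Their HSC markers stood at 374 CPM against 1083 CPM in the other HSC, their megakaryocyte markers at 2900 CPM against 1311 CPM and their erythroid markers at 254 CPM against 41.99 CPM. In MkP, by contrast, 1236 of 1324 cells had at least 100 CPM. The marker values describe these cells, and the part of other cell types in the HSC level of Mfsd2b was not tested. In HSC, 119 cells with at least 100 CPM of Sgpl1 held 89.02% of its counts. For Sgpp1 this was 63 cells and 76.98%, for S1pr1 72 and 68.5%, and for Sphk2 60 and 49.2%. In MkP, 48 such cells held 85.3% of the Sgpl1 counts and 93 held 63.7% of those of S1pr1. Their megakaryocyte markers stood at 2108 and 2088 CPM, against 4175 and 4236 CPM in the other MkP. The part of these cells in the MkP levels was not tested.

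In cells thinned to 100000 counts, Mfsd2b and Sphk1 were counted together in 621 of 646 CFU. Of the 1269 MkP with Mfsd2b, 5.52% also had Sphk1 and 5.91% had Sgpl1, while 28% of the 50 MkP without Mfsd2b had Sgpl1. MkP under 100 CPM of Mfsd2b also differed in markers from the other MkP. Their megakaryocyte markers stood at 1984 against 4247 CPM, HSC markers at 157 against 60.1 CPM and myeloid markers at 1135 against 345 CPM. The part of such cells in the Sgpl1 share was not tested. In CFU with Sphk1, 72.5% also had Sgpp1 and 61.1% Sgpl1. Since 628 of 646 CFU had Sphk1, these shares lie close to those of all CFU, where 459 cells had Sgpp1 and 390 had Sgpl1. In HSC, 8 of 691 cells had both Mfsd2b and Sphk1. These shares pool cells of 8 mice and have no test.

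Within populations, the members were compared between cells split by another gene, in the same mouse. These levels are scaled to the plain total without TMM and are not on the scale of the sums. MkP were ranked by Pf4, a platelet granule gene, and the top and bottom of 3 equal parts were compared, 438 cells each. S1pr1 stood at 7.35 ± 2.59 CPM in the Pf4-high cells and 32.2 ± 14.8 CPM in the Pf4-low cells (SD, n = 8). It was lower in the Pf4-high cells of all 8 mice, by -1.93 ± 0.71 on the log2(CPM + 1) scale (exact sign-flip test, two-sided, adjusted over 24 tests p = 0.0469, the smallest p possible being 0.0078 unadjusted). With the cells split at the median of Pf4 the difference was -1.52 and did not pass (exact test, adjusted p = 0.0625). Every split that passed sat at the smallest possible p, which passes adjustment only when enough of the 24 tests share it. The call lost at the median split here, and that for Sgpl1 in CFU below, is therefore no measure of a weaker difference. Sphk1 was 3.36 CPM in Pf4-high and 34.5 CPM in Pf4-low cells, lower in 7 of 8 mice (exact test, adjusted p = 0.0625), and Sgpl1 3.12 and 14.6 CPM (exact test, adjusted p = 0.107). Mfsd2b was 827 and 839 CPM, higher in the Pf4-high cells of 3 of 8 mice. The Pf4-low cells also had a median of 1057 CPM of erythroid markers against 155 CPM and of 79.8 CPM of HSC markers against 49.4 CPM, higher in all 8 mice, and the part of these cells in the S1pr1 difference was not tested.

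MkP were also split by a count of Mki67, a gene of dividing cells, in thinned cells. Mfsd2b was 788 ± 94.4 CPM in the 550 cells with Mki67 and 916 ± 99.0 CPM in the 774 without, lower in all 8 mice by -0.22 ± 0.17 (SD, n = 8; exact sign-flip test, adjusted p = 0.0469). The other 5 members did not pass.

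CFU were ranked by the sum of 4 hemoglobin genes, and 214 cells at each end were compared. Sgpl1 was 72.4 ± 17.97 CPM at the hemoglobin-high end and 32.2 ± 10.4 CPM at the low end, higher in all 8 mice by 1.16 ± 0.61 (SD, n = 8; exact sign-flip test, adjusted p = 0.0469). At the median split it differed by 0.76 and did not pass (exact test, adjusted p = 0.0625). S1pr1 was 0.365 and 2.89 CPM, lower in all 8 mice by -1.32 ± 0.91 (exact test, adjusted p = 0.0469). At the median split it differed by -1.07 and did not pass (exact test, adjusted p = 0.075). That adjusted p lies above the 0.0625 of Sgpl1 at the same split, so S1pr1 no longer sat at the smallest possible p. S1pr1 in CFU rested on 92 to 561 counts per mouse, and the cell with the most counts held 29.2% to 60.2% of them. The S1pr1 level at the low end was 1.79 CPM without control mouse 1, and at the high end 0.194 CPM without depleted mouse 2. Sgpp1 was 42.2 and 52.97 CPM (exact test, adjusted p = 0.0625), and Sphk1 was 553 and 581 CPM, higher in 4 of 8 mice. The erythroid marker sum had a median of 5996 CPM at the hemoglobin-high end and 6229 CPM at the low end, higher at the high end in 4 of 8 mice. The hemoglobin-low cells had a median myeloid marker sum of 1223 CPM against 1.21 CPM, higher in all 8 mice, and a lymphocyte sum of 20.9 CPM against 0.626 CPM, higher in 7 of 8. The HSC marker sum, nearly all Mllt3 in CFU, stood at 87.8 CPM at the high end and 58.8 CPM at the low end, higher at the high end in all 8 mice. The part of these markers in the differences was not tested. HSC split by a count of Vwf, which marks HSC with platelet genes, gave no difference past the test. Mfsd2b was 102 ± 76.6 CPM in the 305 HSC with Vwf and 42.8 ± 14.7 CPM in the 392 without, higher in 6 of 8 mice (SD, n = 8; exact sign-flip test, adjusted p = 0.260).

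**Figure D3:**
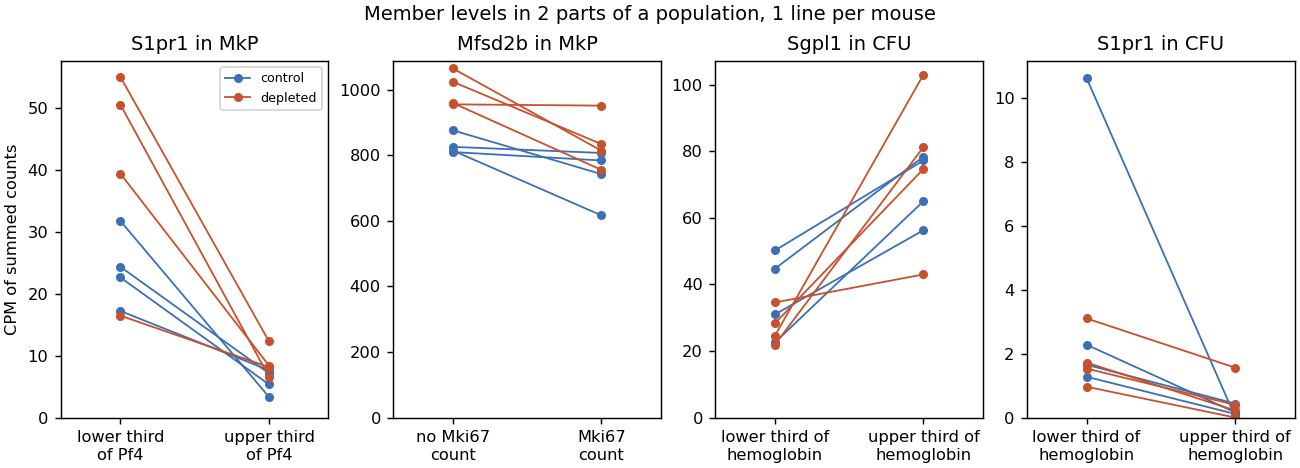
CPM of S1pr1 in Pf4-low and Pf4-high MkP, Mfsd2b in MkP without and with an Mki67 count, and Sgpl1 and S1pr1 in hemoglobin-low and hemoglobin-high CFU, with 1 line per mouse coloured by treatment. In each panel the 8 lines slope the same way.

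Platelet depletion was compared with control within each population, 4 mice against 4, and 0 of 6 members were called by edgeR in HSC, CFU or MkP. The share called over all genes tested was 0% for HSC, 0% for CFU and 0.0108% for MkP. At an unadjusted p under 0.05, edgeR gave 0 members in HSC, 1 in CFU (Sphk2) and 3 in MkP (S1pr1, Sphk2 and Mfsd2b), where 8.56%, 11.9% and 13.7% of all genes did so. DESeq2 called 0 members in HSC, 0 in CFU and 1 in MkP, S1pr1. It called 267, 472 and 955 genes in all in HSC, CFU and MkP. In data simulated on these sums, edgeR recovered 53.5% (HSC), 59% (CFU) and 54.5% (MkP) of 200 genes changed 4-fold.

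Among the members, the largest ratio with no overlap was that of S1pr1 in MkP. All 4 depleted mice, at 17.05 to 29.2 CPM, lay above all 4 control mice, at 12.1 to 15.01 CPM. The log2 difference was 0.74 (SE 0.18, 95% interval 0.32 to 1.15), with p = 0.00289 unadjusted and 0.181 adjusted in edgeR and 0.00752 adjusted in DESeq2. In the thinned cells the share of MkP with S1pr1 was 13.9% ± 1.98 over the control mice and 18.9% ± 4.34 over the depleted mice (SD, n = 4; exact permutation test p = 0.0857, adjusted p = 0.771, smallest possible p 0.0286). This difference of 5.09 percentage points turned to -0.645 at 100000 counts per cell and -3.39 without thinning. In MkP the HSC marker sum was 46.7 to 75.3 CPM in control and 54.5 to 83.2 CPM in depleted mice, the erythroid sum 245 to 659.9 and 389 to 591 CPM, and the megakaryocyte sum 3713 to 5523 and 3209 to 3838 CPM. Their part in the S1pr1 difference was not tested.

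Sphk2 also did not overlap between treatments in MkP, with 21.3 to 25.5 CPM in control and 27.4 to 35.7 CPM in depleted mice (log2 difference 0.39, SE 0.12, adjusted p = 0.241, edgeR). In CFU the ranges were 26.1 to 36.4 and 39.7 to 43.3 CPM (0.29, SE 0.13, adjusted p = 0.412). Its HSC values overlapped, at -0.30 (SE 0.29). In all, 0 of 6 members in HSC, 1 in CFU and 2 in MkP had no overlap of control and depleted mice, where 8.1%, 9.87% and 9.3% of all genes tested had none. Mfsd2b differed by 0.20 in MkP (95% interval 0.02 to 0.38, adjusted p = 0.308), 0.08 in CFU (-0.12 to 0.27) and 0.32 in HSC (-0.58 to 1.22). Sphk1 differed by 0.16 in CFU (-0.07 to 0.38, adjusted p = 0.575). In HSC its difference was -2.57 (SE 1.68, adjusted p = 0.702) and turned to 1.71 without control mouse 4. Sgpl1 in MkP differed by 0.52 (SE 0.37), and Sgpp1 by -0.14 in HSC, 0.07 in CFU and -0.03 in MkP.

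**Figure D4:**
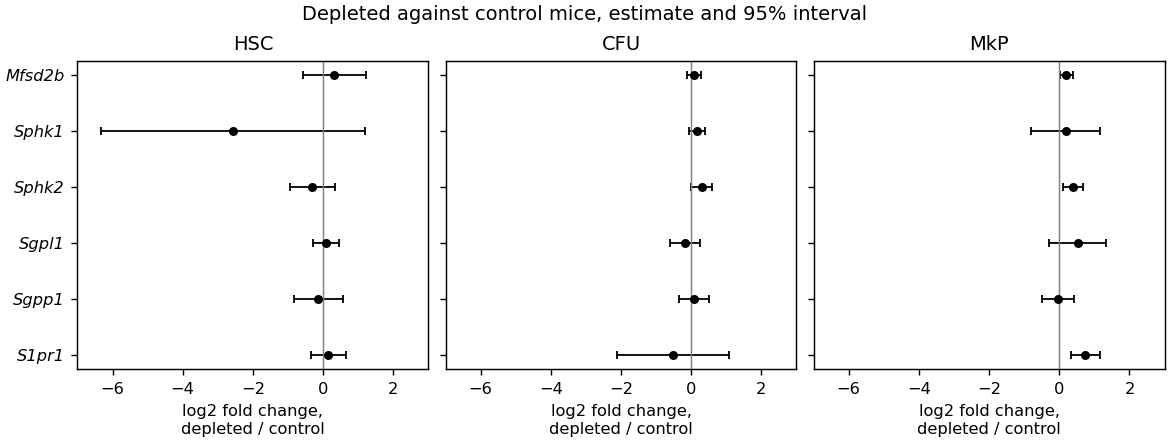
Log2 fold change of each gene, depleted over control, in HSC, CFU and MkP, with the 95% interval of the edgeR fit (4 mice against 4). Intervals exclude 0 for S1pr1, Sphk2 and Mfsd2b in MkP and for Sphk2 in CFU, and 0 of the 18 passed adjustment over all genes.

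The treatment effect was also compared between populations with interaction terms. For MkP against HSC, CFU against HSC and CFU against MkP, 0 of 6 members were called by edgeR and 0 by DESeq2, beside 0.0144%, 0% and 0% of 20852 genes by edgeR. Unadjusted, 1, 1 and 0 members had p under 0.05, Sphk2 in both cases, where 6.05%, 9.05% and 5.89% of all genes did so. The share of cells with a count differed by treatment in 0 of 18 tests (exact permutation test, lowest adjusted p = 0.771).

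Other genes of the pathway were taken from a list of 52 sphingolipid and S1P genes, of which 46 were tested between populations. Called genes were 20 (8 higher, 12 lower) for MkP against HSC, 42 (13 higher, 29 lower) for CFU against HSC and 36 (10 higher, 26 lower) for CFU against MkP. That is 43.5%, 91.3% and 78.3% of the listed genes, beside the 31%, 64.9% and 55.3% of all genes given above. The median difference over the list was -0.22, -1.17 and -0.81, beside 0.0067, -0.23 and -0.21 over all genes. By treatment 0 were called in each population by edgeR, with 2, 5 and 5 at an unadjusted p under 0.05 in HSC, CFU and MkP, where 8.56%, 11.9% and 13.7% of all genes had one.

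Of the other 4 S1P receptors, 3 (S1pr2, S1pr4 and S1pr5) were called lower in CFU than in HSC and than in MkP. S1pr4, a receptor of blood cells, was at 130 CPM in HSC, 65.9 in MkP and 31.2 in CFU on average, with log2 differences of -0.996 (adjusted p = 4.07e-07) for MkP against HSC and -1.08 (adjusted p = 1.82e-08) for CFU against MkP. S1pr2, a receptor that acts against movement, was at 24.8, 32.2 and 2.84 CPM in HSC, MkP and CFU, and CFU was lower than HSC by -3.13 (adjusted p = 4.78e-10, edgeR). S1pr3 was at 3.03, 0.530 and 0.488 CPM and was called in none of these. In HSC its 4 depleted mice, at 3.51 to 7.35 CPM, lay above the controls at 0.0137 to 3.0 CPM (log2 difference 2.44, SE 1.28, adjusted p = 0.627, edgeR). Of all genes tested in HSC, 8.1% had no overlap by treatment. S1pr5 was at 0 counts in all 8 CFU sums, where 3 counts in the population would be 0.00191 CPM, and averaged 0.595 CPM in HSC and 0.210 in MkP. It was called between CFU and both others, but against MkP not with the mouse as a block (adjusted p = 0.0904) nor without depleted mouse 1 (adjusted p = 0.0624).

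Spns2, the S1P exporter of the endothelium, ran opposite to Mfsd2b across HSC and CFU. It stood at 93.4 ± 29.4 CPM in HSC, 58.3 ± 13.2 in MkP and 2.10 ± 2.44 in CFU (SD, n = 8). CFU was lower than HSC by -5.43 (SE 0.65, adjusted p = 1.17e-07, edgeR) and than MkP by -4.76 (SE 0.63, adjusted p = 8.23e-07). In MkP its 4 depleted mice, at 58.02 to 77.9 CPM, lay above the controls at 37.4 to 55.9 CPM (log2 difference 0.53, SE 0.14, adjusted p = 0.190, edgeR). S1pr4 in MkP had no overlap by treatment either, with a ratio of means, depleted over control, of 1.32. Of all genes tested in MkP, 9.3% had none. Abcc1, another transporter that can move S1P, was at 84.8, 91.1 and 28.8 CPM in HSC, MkP and CFU, lower in CFU than in MkP by -1.67 (adjusted p = 1.28e-09). Apom, which carries S1P in plasma, had 0 counts in all HSC sums and averaged 0.123 CPM in CFU and 0.108 CPM in MkP. Its call in MkP against HSC was lost with the mouse as a block (adjusted p = 0.0973).

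**Figure D5:**
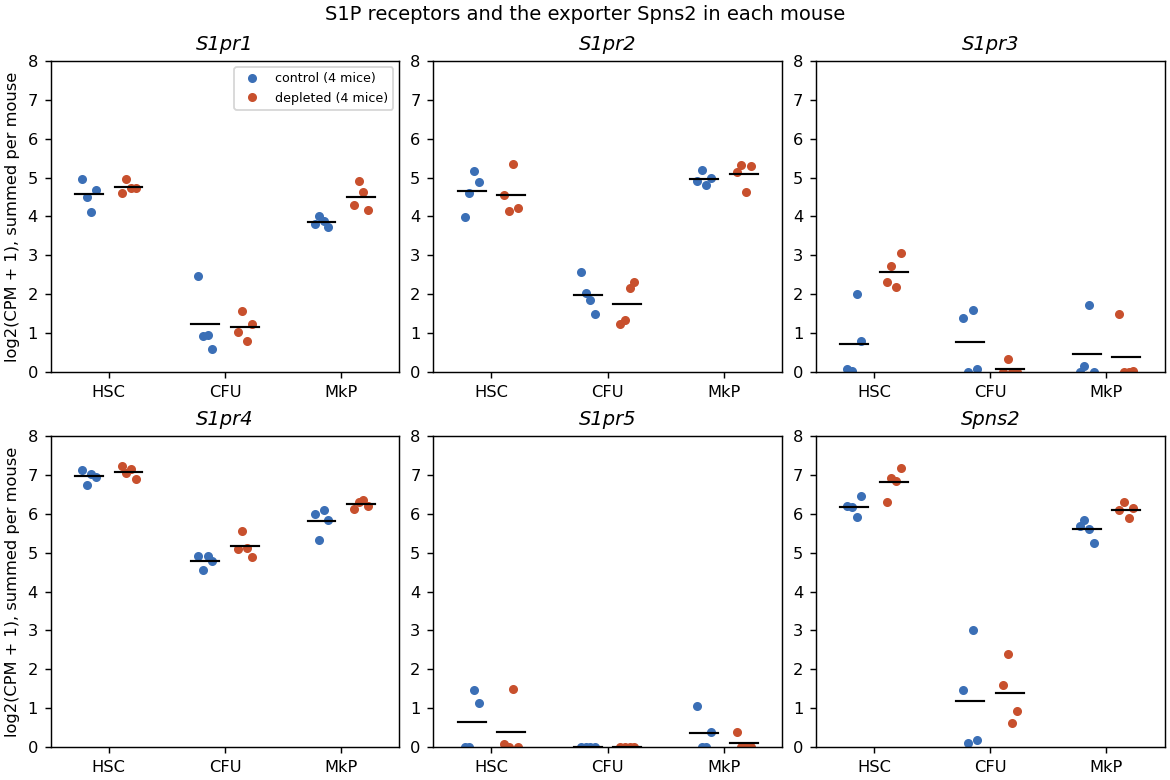
Level as log2(CPM + 1) of S1pr1 to S1pr5 and Spns2, with 1 point per mouse in HSC, CFU and MkP, control and depleted in separate colours and a bar at the mean of 4 mice. S1pr1, S1pr2, S1pr4 and Spns2 are lowest in CFU, and S1pr5 is at 0 there.

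Upstream of S1P, 13 of the 17 listed genes of sphingoid base synthesis were tested. In CFU 4 were higher and 9 lower than in HSC, and in MkP 3 were higher and 4 lower than in HSC. Cers4 and Cers5 encode ceramide synthases. Cers4 stood at 114 CPM in HSC, 43.6 in MkP and 3.45 in CFU, lower in CFU than in HSC by -5.16 (SE 0.29, adjusted p = 2.58e-13, edgeR). Cers5 stood at 80.1, 60.7 and 3.76 CPM, lower in CFU than in MkP by -4.08 (SE 0.37, adjusted p = 1.70e-09). Cers1 averaged under 1 CPM in every population, and its call in MkP against HSC was lost with the mouse as a block (adjusted p = 0.0704), with no count filter (0.0529) and without control mouse 1 or depleted mouse 1, 2 or 4 (0.0820 to 0.118).

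Of 9 tested genes that release ceramide or sphingosine, 4 were higher and 4 lower in CFU than in HSC. Smpd2, a neutral sphingomyelinase, was at 38.4 CPM in HSC, 19.9 in MkP and 0.472 in CFU (-6.48 for CFU against HSC, adjusted p = 5.56e-07, edgeR). Asah2, a neutral ceramidase, was at 15.8, 6.43 and 0.575 CPM (-4.78, adjusted p = 1.07e-08). Acer2, an alkaline ceramidase, was at 12.4 CPM in HSC and 1.71 in MkP (-2.74, adjusted p = 0.00348). Smpd3 averaged under 1 CPM in every population.

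Of 3 genes that use ceramide, 1 was higher and 2 lower in CFU than in HSC. Ugcg, which makes glucosylceramide, was at 10.9 CPM in HSC, 18.5 in MkP and 49.4 in CFU, higher in CFU than in HSC by 2.20 (adjusted p = 4.42e-10, edgeR). Cerk, which makes ceramide 1-phosphate, was at 28.6, 11.9 and 1.80 CPM, lower in CFU than in HSC by -3.98 (adjusted p = 2.16e-06).

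Of 5 other genes of S1P breakdown, among them lipid phosphatases that can act on S1P outside the cell, 1 was higher and 4 lower in CFU than in HSC, and 0 higher and 3 lower in MkP than in HSC. Plpp1 was at 2.51 CPM in HSC, 0.434 in MkP and 63.4 in CFU, higher in CFU than in MkP by 7.28 (SE 0.74, adjusted p = 1.28e-08, edgeR). Plpp3 was at 8.93, 6.09 and 0.203 CPM, lower in CFU than in HSC by -5.53 (adjusted p = 7.92e-06). Of receptor regulators, Arrb2, an arrestin, was higher in MkP at 24.3 CPM than in HSC at 8.39 CPM (1.53, adjusted p = 8.30e-08). Klf2, a transcription factor known to drive S1pr1 in lymphocytes, was at 4.27 CPM in HSC, 4.08 in MkP and 0.00711 in CFU (-9.16 for CFU against HSC, adjusted p = 5.17e-10). Cd69, a membrane protein that removes S1PR1 from the cell surface, was at 67.7 ± 32.4 CPM in MkP and 15.6 ± 10.3 CPM in HSC, but at 1.496 ± 3.13 in CFU (SD, n = 8), and CFU was lower than MkP by -5.60 (adjusted p = 0.000125).

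Across the 24 sums, the genes most like each member were found among 10259 genes by Pearson's r of log2 CPM with a prior count of 2, given as a description since the sums share mice and populations. Sphk1 was most like Slc38a5 (r = 0.994), Pklr (0.989) and Rhd (0.984), and Mfsd2b most like Jpt1 (0.971), Samd14 (0.955) and Ckap2l (0.952). S1pr1 was most like Rab17 (0.979), Sgpl1 like Dkkl1 (0.954) and Sgpp1 like Atp6v0c (0.949). Sphk2 had the weakest best partner, Gtpbp10 (r = 0.881).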

How the data were processed

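Single cells labelled HSC, CFU and MkP from the marrow of 8 mice were sequenced with Smart-seq2. The authors deposited raw counts per gene and well. Per the submitters' processing notes the tools included Trim Galore 0.5, STAR 2.6.0 and HTSeq 0.6.1, and the genome build is not given in the sources used here. All values were whole numbers, 0 rows named no gene, and 1 column matched no sample and was not used. Counts of the 107 symbols on more than 1 row were added. Wells with at least 20000 counts, 1000 genes and at most 20% mitochondrial counts were kept (2668 of 3069), with a median of 1718305 counts. No doublet caller was run.

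Counts were summed per mouse and population and tested with edgeR 4.0.16 (R 4.3.3; quasi-likelihood, TMM, filterByExpr, Benjamini-Hochberg over all genes tested). Treatment was fitted within each population, populations in 1 fit of 24 sums with treatment, and interactions over 6 groups. DESeq2 1.42.0 was an alternative, with other filters, thinned cells, the mouse as a block and each mouse left out. Values of single members per mouse used exact two-sided permutation tests (70 labelings of 4 against 4 mice, 256 sign flips of 8). A pseudocount of 1 CPM was added in the tests of split cells only, and shares of cells were tested as percentages. The fits were tested on simulated data.

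The mouse pairs the populations, by the code opening each title. Deviations from group means correlated by 0.042 to 0.272 within a mouse, and each of 8 mice correlated best with itself in all 3 population pairs. P-values measure the spread between these mice. The members and lists were chosen with earlier results of these data known, and the 100 CPM boundary after seeing the data. Of the erythroid markers, 1 gene is not reported here and was left out of their sums. All 6 members are named. A listed gene is named where it was called between populations and was among the 2 largest changes of its list, as are all S1P receptors and Spns2. Promoter windows came from RefSeq, which held 5 of the 6 members in 10 entries.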

Additional observations from a re-analysis of the deposited data

Results flagged for a closer look

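In groups of 4 mice, 36 sets of member levels were examined for a mouse far from the others, which chance alone produces in about 1 of 20 sets, and 3 were found. Sphk1 in HSC of control mouse 4 stood at 14.1 CPM, against 0.00687 to 0.370 CPM in the other control mice, a gap of 0.974 of the whole range. Sgpp1 in CFU of depleted mouse 3 was low at 45.2 CPM, against 61.4 to 63.02 CPM in the other depleted mice, a gap of 0.910 of the range. S1pr1 in CFU of control mouse 1 was high at 4.55 CPM, against 0.513 to 0.929 CPM in the other control mice, a gap of 0.897 of the range. In that mouse 1 CFU held 60.2% of the 561 S1pr1 counts.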

How the results depend on the processing

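Of the 18 member differences between populations, 272 of 285 recomputed values kept their direction and their side of the threshold, as did 231 of 246 for treatment. The count of members called stayed within 1.5 times in 134 of 135 recomputed counts, and was 1 for depleted MkP with DESeq2 in place of 0. Between populations DESeq2 called 2, 5 and 5 members for MkP against HSC, CFU against HSC and CFU against MkP. It gave no adjusted p for Sphk1 there, so Sphk1 has fewer recomputed values. With the replicate block, in which each mouse is its own level, 3, 6 and 6 members were called for MkP against HSC, CFU against HSC and CFU against MkP, as without it, and beyond the Cers1, Apom and S1pr5 calls given above it changed no other call of a member or named pathway gene. Over all genes the block called 6466, 13200 and 11281 genes between populations in that order, against 6073, 12700 and 10832 without it, and 0, 0 and 0 interactions. Over all genes, treatment called 0, 0 and 2 genes in HSC, CFU and MkP with edgeR, 267, 472 and 955 with DESeq2, 38, 27 and 106 with thinned cells and 6, 37 and 147 at a mean of 8 CPM. Interactions called 3, 0 and 0 genes with edgeR and 315, 587 and 457 with DESeq2. Sgpp1 for MkP against HSC turned to -0.056 with DESeq2, -0.048 at 8 CPM and -0.0054 with those populations alone. By treatment, thinned cells turned Sgpl1 in HSC to -0.32, Sgpp1 in HSC to 0.011 and in MkP to 0.10, and Sphk1 in MkP to -0.0041. The share of cells turned for S1pr1 in MkP by treatment to -0.645 (100000 counts) and -3.39 points (no thinning), for Mfsd2b in CFU against MkP to 0.958 and 0.0331, and for Sphk1 in MkP against HSC to -6.32 without thinning. Leaving out each mouse, the log2 difference by treatment ranged from -0.82 to 0.66 for S1pr1 and -0.093 to 0.18 for Sgpp1 in CFU, -0.068 to 0.65 for Sphk1 and -0.15 to 0.12 for Sgpp1 in MkP, and -3.15 to 1.71 for Sphk1, -0.032 to 0.17 for Sgpl1 and -0.35 to 0.18 for Sgpp1 in HSC. It ranged from -0.064 to 0.083 for Sgpp1 in MkP against HSC, and the share of Mfsd2b cells in CFU against MkP from -1.31 to 0.0124 points. Of 4 member differences in split cells, the 3 from ranked cells lost their call at the median split. The Mki67 split has no median form, and its call was carried over rather than adjusted again with the median splits. It therefore does not count as a call that held. With a mouse left out 0 to 0 passed, since the smallest p of 7 mice is larger. The values without a single mouse for the kinase share and the split levels were added after seeing the data. The causes were not tested. Sphk1 in HSC rests on 1 to 1914 counts per mouse.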
